A study of Mus musculus with 6 samples.

Results

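Clcn1, Scn4a, Kcnj11, Atp1b1, Fxyd1 and Cacng1 encode ion channel and sodium pump proteins of the sarcolemma, the excitable surface membrane of the muscle fibre. The members were the probes whose platform annotation gave 1 of these 6 symbols, which found 7 of the 45281 probes on the array, and 5 of the 19057 genes the annotation names: 2 for Clcn1, 1 for Kcnj11, 1 for Atp1b1, 2 for Fxyd1 and 1 for Cacng1. The annotation used here named 0 probes for Scn4a, so that gene was not analysed here. RNA came from tibialis anterior, a fast hindlimb muscle, of 3 wild type mice and 3 mice whose nebulin lacks its SH3 domain (Neb SH3-deleted). All 6 were males of 8 weeks on a mixed Sv129/Black Swiss background, each on 1 Illumina bead array, and values per array are given in the order of replicates 1, 2 and 3 of a genotype. The labels call the 3 per group biological triplicates and do not give zygosity, or how the allele was made. Neb, the modified gene, has 1 probe, with detection p-values no lower than 0.543, so the arrays do not check the genotype. On the leading principal component, with 31.75% of the variance, replicate 2 of wild type and replicate 1 of Neb SH3-deleted muscle stood apart. On the second, with 23.45%, Neb SH3-deleted replicate 3 had the score farthest from 0 (-12.17). The median signal was 83.3 to 88.9 per array. The comparison asks whether transcripts that set membrane excitability differ in level between the genotypes.

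An action potential in muscle starts at the endplate, where acetylcholine receptors open, and travels along the sarcolemma and into the transverse tubules through voltage-gated sodium channels. Resting chloride conductance through the channel encoded by Clcn1 damps the membrane, and loss of this channel causes myotonia in mice and people. The Na,K-ATPase restores the sodium and potassium gradients after each spike. ATP-sensitive potassium channels open when energy is short, and the L-type calcium channel of the tubule senses voltage for contraction.

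Promoter sequence is shown for Atp1b1, the one member that was above background on every array, and for Clcn1, the main muscle chloride channel gene, whose probes were not. Each sequence is the 250 bases before an annotated RefSeq transcript start (GRCm38.p6), 5′ to 3′ on the gene's strand, at chr1:164458356-164458605 (minus strand) and chr6:42286435-42286684 (plus strand). Capitals mark matches to 5 motifs searched on both strands, which may overlap one another. The TATA box, which positions the start of transcription, was searched as TATAAA. The promoter element CCAAT was searched by those letters. The GC box, to which Sp-family factors bind, was searched as GGGCGG. The E-box, to which MyoD-family factors among others bind, was searched as CANNTG. The MEF2 motif, a site of muscle gene promoters, was the fifth.
Atp1b1: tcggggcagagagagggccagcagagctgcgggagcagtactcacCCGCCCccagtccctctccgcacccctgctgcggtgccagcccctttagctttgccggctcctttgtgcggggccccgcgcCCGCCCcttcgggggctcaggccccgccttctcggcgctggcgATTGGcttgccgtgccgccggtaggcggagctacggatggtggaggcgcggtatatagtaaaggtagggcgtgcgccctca
Clcn1: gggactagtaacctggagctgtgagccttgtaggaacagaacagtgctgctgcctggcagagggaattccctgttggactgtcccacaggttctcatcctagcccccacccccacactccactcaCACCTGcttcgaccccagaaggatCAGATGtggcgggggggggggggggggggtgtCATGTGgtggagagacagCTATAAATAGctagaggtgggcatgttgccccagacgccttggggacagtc
The Atp1b1 window held 2 GC boxes and 1 CCAAT element, all on the opposite strand, and no TATA box, E-box or MEF2 motif. The Clcn1 window held 3 E-boxes and a MEF2 motif at base 200 that overlaps a TATA box at base 201, counted from the 5′ end. Of 32851 promoter windows of this length, 32.7% held a GC box, 33.8% a CCAAT element, 12.4% a TATA box, 66.2% an E-box and 3.2% a MEF2 motif. GC content was 70.4% for Atp1b1 and 60% for Clcn1, against a median of 52.4% over all windows. Windows for Scn4a and Fxyd1 were also searched, and none of the 5 motifs matched in them. The Atp1b1 window lies just before the annotated span of its gene. The Clcn1, Scn4a and Fxyd1 windows lie inside the span of their gene, before an inner transcript start, and the outermost start of these genes was not searched. The array data do not bear on these motifs, and a match is a description only.

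Atp1b1 was the only member above background on all 6 arrays, taken as a detection p-value under 0.05 against the negative control probes. Of the other 6 member probes, 1 (Fxyd1) was above background on 3 arrays, 2 (Clcn1 and Cacng1) on 1 array and 3 on 0 arrays. Over all probes of the platform, 71.55% were above background on 0 arrays, 16.19% on 1 and 3.33% on all 6. Atp1b1 gave a signal of 1.69 to 3.57 times the median of its array, a median that lies at background level. The other 6 probes gave 0.925 to 1.10 times that median. A probe that is not above background gives no level for its gene, so it does not show that these channel genes are silent in tibialis anterior.

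**Figure D1:**
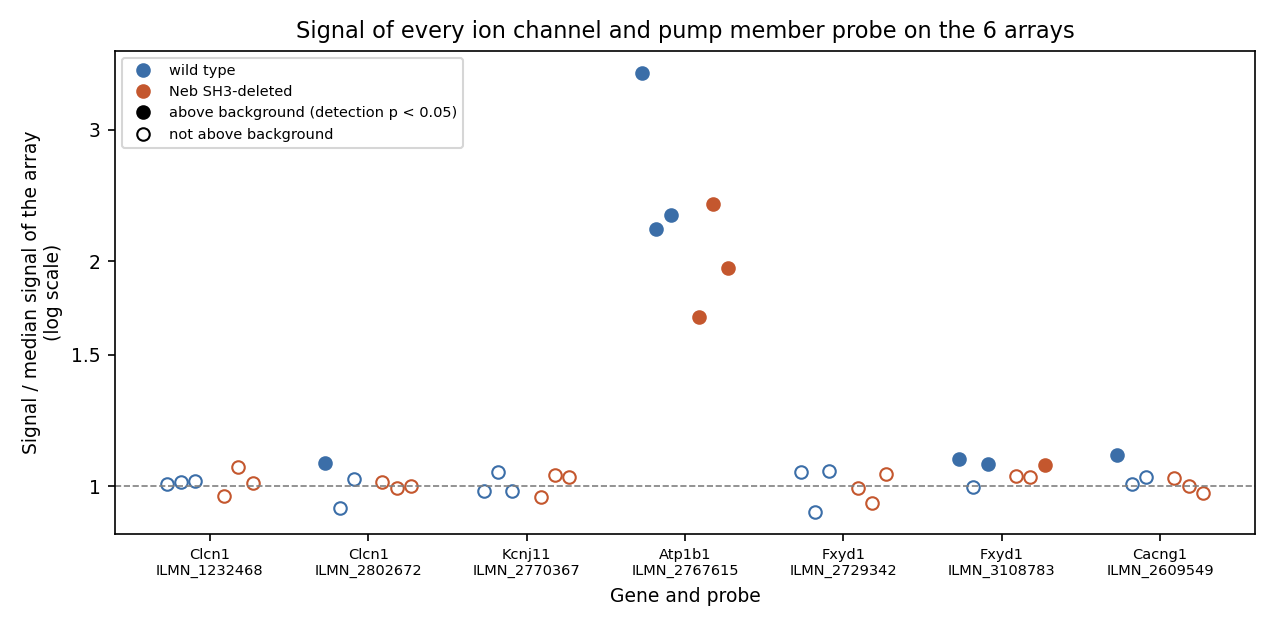
Signal of the 7 member probes on each of the 6 arrays, divided by that array's median signal (log scale), 1 point per array. Filled points are above background (detection p under 0.05): Atp1b1 is filled on all 6 arrays and lies between 1.69 and 3.57, and every other probe lies near 1.

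Atp1b1 encodes the β1 subunit of the Na,K-ATPase, a glycoprotein that the pump needs to fold, reach the membrane and bind potassium. Its probe (ILMN_2767615; gene at chr1:164437099-164458355, GRCm38.p6) had signals of 309, 184 and 193 in wild type and 144, 202 and 174 in Neb SH3-deleted muscle. After background correction and normalization the log2 levels were 7.59, 6.82 and 6.98 in wild type and 6.50, 6.80 and 6.94 in Neb SH3-deleted muscle. The highest value was that of wild type replicate 1 and the lowest that of Neb SH3-deleted replicate 1, while wild type replicates 2 and 3 and Neb SH3-deleted replicates 2 and 3 lay close together and the groups overlapped. Of Neb SH3-deleted replicates 2 and 3, the first had the higher signal and the second the higher normalized level.

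The mean log2 level of Atp1b1 was 7.13 ± 0.41 in wild type and 6.75 ± 0.22 in Neb SH3-deleted muscle (SD over 3 arrays each), a difference of -0.38 (SE 0.22, 95% interval -0.87 to 0.10), or 0.766 times the wild type level. It did not pass the threshold (limma, Benjamini-Hochberg adjusted p = 0.979). In bulk muscle, fewer cells of a type and less RNA per cell cannot be told apart. The size rested in part on 1 array: without wild type replicate 1 the difference was -0.15, and with any other array left out it lay between -0.54 and -0.26. With arrays scaled to a common median it was -0.61, without background correction -0.25 and in the authors' deposited values -0.25, all with adjusted p-values above 0.9. Without the pair of arrays that stood apart Atp1b1 was at -0.41. The within-group spread of Atp1b1 was wide, with a residual SD (0.328) larger than that of 82.46% of the genes tested.

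**Figure D2:**
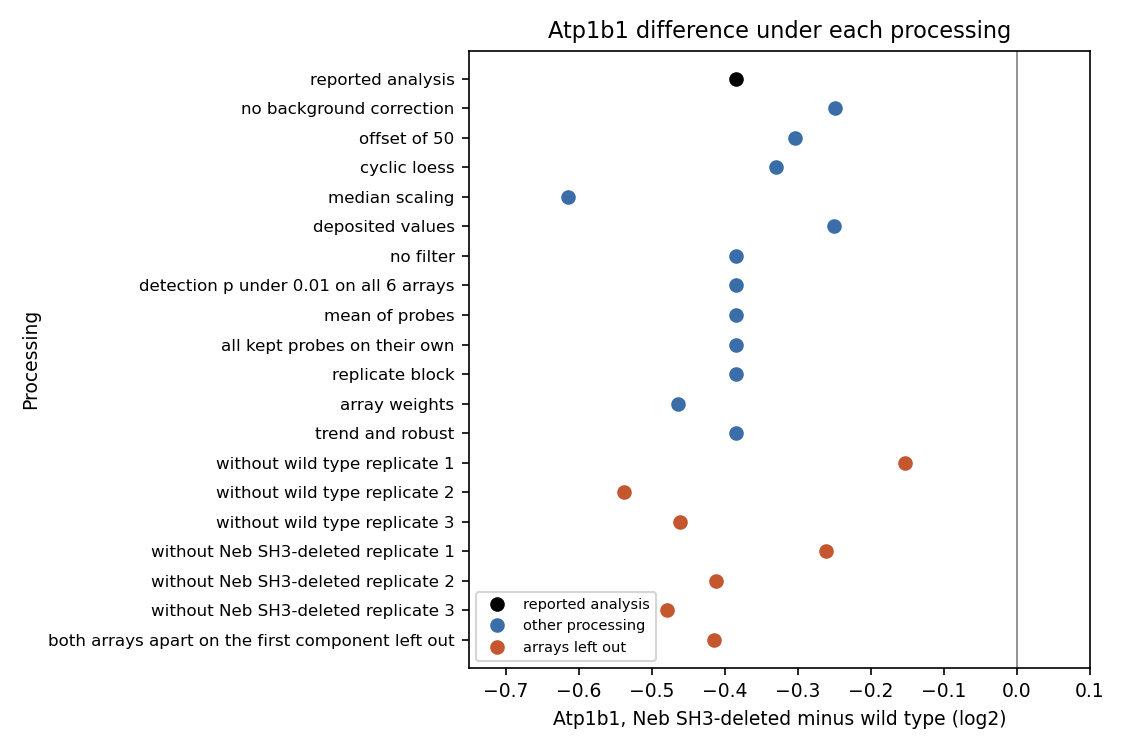
Log2 difference of Atp1b1 (Neb SH3-deleted minus wild type, horizontal axis) under the reported analysis (black), other processing (blue) and with arrays left out (orange), 1 point per processing. Every point lies below 0, from -0.61 with median scaling to -0.15 without wild type replicate 1. Changes of filter, probe summary, replicate block or eBayes trend left the estimate as it was, so their points repeat that of the reported analysis.

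Fxyd1 encodes phospholemman, a small membrane protein that binds the Na,K-ATPase and holds back its activity until it is phosphorylated. The brighter of its 2 probes (ILMN_3108783; gene at chr7:31051678-31055873) had signals of 94.2, 83.1 and 89.9 in wild type and 88.2, 87.2 and 95.1 in Neb SH3-deleted muscle. It was above background in wild type replicates 1 and 3 and Neb SH3-deleted replicate 3, at detection p-values of 0.0107, 0.0427 and 0.0491. The last of these lies just under the threshold, and no array gave a signal far from background. The normalized log2 levels were 4.48, 4.19 and 4.43 in wild type and 4.29, 4.27 and 4.43 in Neb SH3-deleted muscle, and the groups overlapped. Their means of 4.37 ± 0.15 and 4.33 ± 0.09 (SD, n = 3 each) differed by -0.04 (95% interval -0.38 to 0.31, limma, adjusted p = 0.993), by 0.02 without wild type replicate 1 and by -0.11 without the pair of arrays that stood apart. The second probe (ILMN_2729342) was above background on 0 arrays, with signals of 77.1 to 92.2 and detection p-values of 0.101 to 0.979. Both probes had their lowest normalized level in wild type replicate 2.

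Of the 2 members tested, 0 passed an adjusted p of 0.05, as did 0% of all 3011 genes tested (limma, smallest adjusted p 0.979), and 0 had an unadjusted p under 0.05, against 4.28% of all genes. The 2 members both overlapped between the groups, where 9.33% of all genes did not.

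Clcn1 encodes the chloride channel that carries most of the resting chloride conductance of skeletal muscle. Its first probe (ILMN_1232468; gene at chr6:42284851-42315764) had signals of 87.3, 84.4 and 85.4 in wild type and 83.0, 89.9 and 89.9 in Neb SH3-deleted muscle, with detection p-values from 0.062 to 0.757. Its second probe (ILMN_2802672) had signals of 93.1, 77.9 and 85.9 in wild type and 86.5, 84.3 and 88.9 in Neb SH3-deleted muscle. That probe was above background in wild type replicate 1 alone (detection p 0.0235), and it was dimmer in wild type replicate 2 than in any other array (0.958). The probes did not share an order of arrays: the first was highest, after normalization, in Neb SH3-deleted replicate 2, and the second in wild type replicate 1. No fold is given, since neither probe passed the filter of at least 3 arrays above background.

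Kcnj11 encodes the pore of the ATP-sensitive potassium channel, which opens when the energy supply of the fibre fails. Its probe (ILMN_2770367; gene at chr7:46097123-46100952) had signals of 85.3, 87.1 and 82.9 in wild type and 82.6, 87.9 and 91.3 in Neb SH3-deleted muscle. It was not above background on any array, with detection p-values from 0.108 to 0.791, and the groups overlapped throughout. Its partner subunit gene Abcc9, which encodes the sulfonylurea receptor of muscle and of vessel walls, was above background on all 6 arrays with 1 of its 4 probes. The log2 levels of Abcc9 were 4.85, 4.89 and 4.84 in wild type and 5.10, 4.82 and 4.56 in Neb SH3-deleted muscle, a difference of -0.04 (95% interval -0.42 to 0.35, and -0.17 to 0.10 with 1 array left out, above 0 when Neb SH3-deleted replicate 3 was dropped). The wild type arrays lay within the range of the Neb SH3-deleted arrays.

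Cacng1 encodes the γ1 subunit of the L-type calcium channel of the transverse tubule, which dampens the channel's current. Its probe (ILMN_2609549; gene at chr11:107703218-107716476) had signals of 95.3, 83.9 and 86.6 in wild type and 87.6, 84.9 and 87.2 in Neb SH3-deleted muscle. It was above background in wild type replicate 1 (detection p 0.00641) and on no other array. Against the lowest level measured above background in the Neb SH3-deleted arrays, the wild type mean gave a ratio under 1, so no fold is given for Cacng1.

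Wild type replicate 1 was the highest of the 6 arrays, after normalization, for 4 of the 7 member probes (1 each of Atp1b1, Fxyd1, Clcn1 and Cacng1), and for 16.1% of all probes on the array. Of these 4, the Clcn1 and Cacng1 probes were at background on the other 5 arrays, where their order carries little information. Both member probes that were above background on a single array were so in this one. That array had the most probes above background (5844, against 4000 to 4843 on the others), and of all probes above background on 1 array 24.5% were so on it. The part of this array's detection in the member values was not tested.

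To set the members among related genes, 81 genes of membrane excitability were listed in 7 classes, with the members among them. The annotation named a probe for 69, and 18 passed the filter, 11 of them above background on all 6 arrays. Of these 18, 0 passed an adjusted p of 0.05 and 1 (Kcnc4) had an unadjusted p under 0.05, beside 4.28% of all genes. The mean was lower in Neb SH3-deleted muscle for 12 of 18 (Ank3 among them, at -0.00) and higher for 6, where 55.3% of all genes were lower, and the median difference was -0.04 against -0.02 over all genes. The 95% intervals of the 18 reached 0.345 to 0.728 to each side on the log2 scale.

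**Figure D3:**
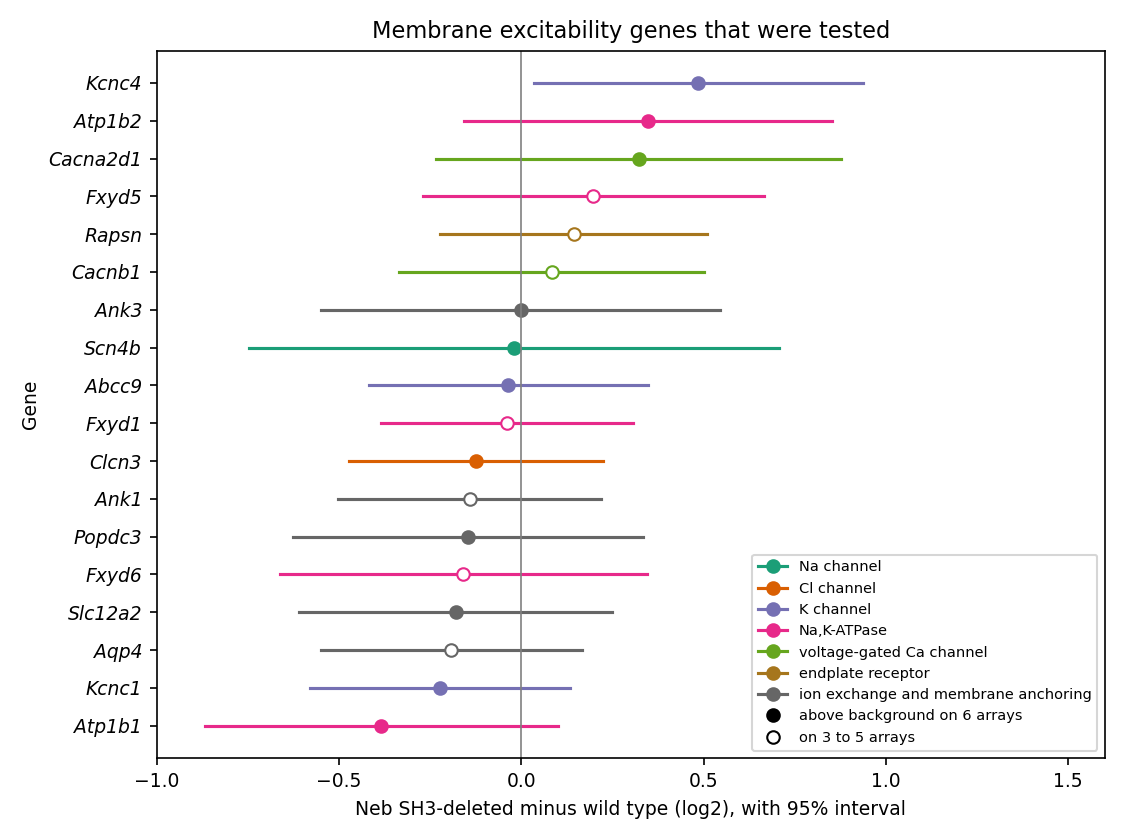
Log2 difference (Neb SH3-deleted minus wild type, horizontal axis) with its 95% interval for the 18 excitability genes tested, coloured by class. Filled points were above background on all 6 arrays. The intervals of 17 genes hold 0, and that of Kcnc4 lies above it.

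In the sodium pump class, 5 of 12 genes were tested, with 3 lower means and 2 higher. Atp1b2 encodes the β2 subunit, which is abundant in fast fibres, and had log2 levels of 5.61, 4.92 and 5.69 in wild type and 5.65, 6.05 and 5.57 in Neb SH3-deleted muscle. Its difference was 0.35 (95% interval -0.16 to 0.85, limma, adjusted p = 0.979), and 0.10 without wild type replicate 2, whose level was the lowest. Fxyd5, of the same family as phospholemman, was at 0.20 (0.06 to 0.38 with 1 array left out, lowest without wild type replicate 2). Its probe was above background on 3 arrays only, and the gene's other probes on 0. Fxyd6, another family member, was at -0.16 (-0.36 to 0.01, above 0 only when Neb SH3-deleted replicate 2 was dropped). The groups overlapped for each of the 5.

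**Figure D4:**
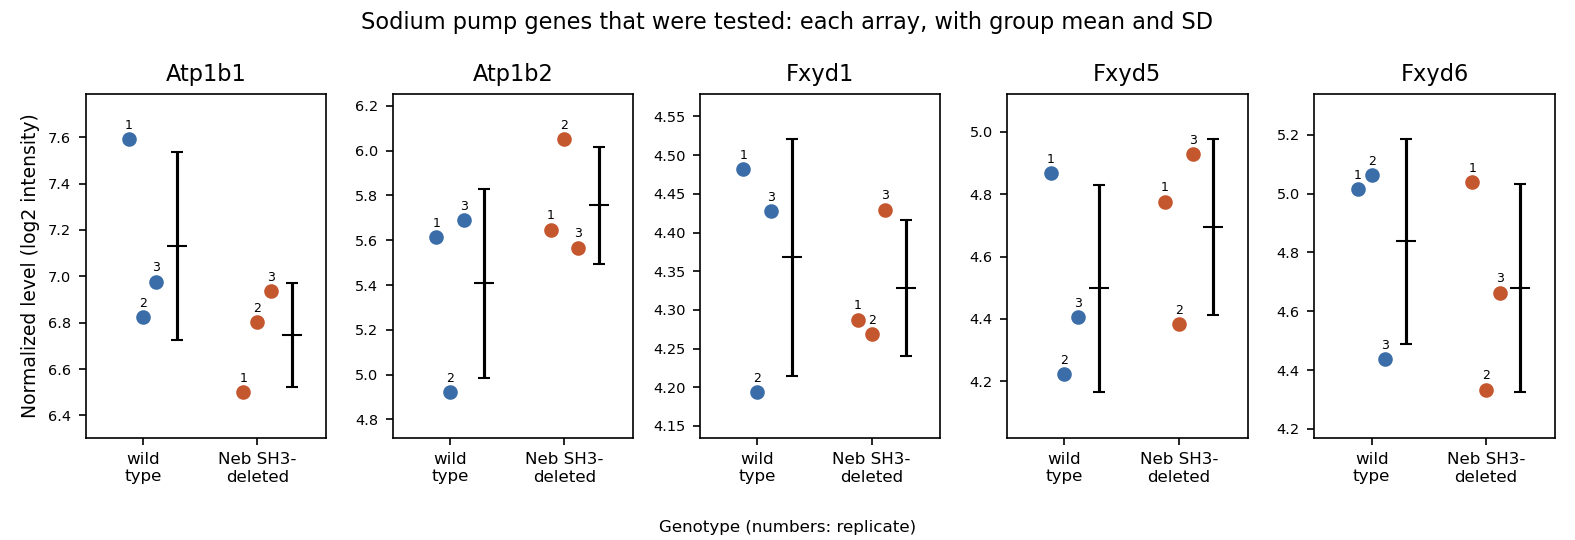
Normalized level (log2 intensity) of the 5 sodium pump genes tested, on each wild type (blue) and Neb SH3-deleted (orange) array, numbered by replicate, with the group mean and SD in black. Each panel has its own vertical axis, because levels of different probes are not comparable, and the groups overlap in every panel.

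Of 21 potassium channel genes 3 were tested and 11 had every probe at background on all 6 arrays, among them the inward rectifier gene Kcnj2 and Kcnj8, the pore gene of the vascular ATP-sensitive channel. Kcnc4 encodes a fast voltage-gated channel subunit that repolarizes the membrane. Its brighter probe had log2 levels of 7.16, 7.79 and 7.86 in wild type and 8.22, 7.96 and 8.09 in Neb SH3-deleted muscle, and it was the 1 gene of the 18 without overlap, beside 9.33% of all genes. The difference of Kcnc4 was 0.49 (95% interval 0.03 to 0.94, limma, adjusted p = 0.979), 0.26 without wild type replicate 1 and 0.19 with median scaling. A second probe of Kcnc4, also above background on all 6 arrays, gave 5.67 ± 0.28 in wild type and 5.63 ± 0.59 in Neb SH3-deleted muscle (SD, n = 3 each), a difference of -0.04 with a 95% interval of -0.64 to 0.57. That interval holds the value of the brighter probe, so the second probe neither shows nor excludes a difference of that size. Kcnc1, a related channel gene, was at -0.22 (-0.58 to 0.13), and ran from -0.39 with median scaling to -0.08 in the authors' deposited values.

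Sodium and chloride channel genes had 1 tested member each. Scn4b, a sodium channel β subunit gene, was at -0.02 (95% interval -0.75 to 0.71), with levels of 5.30, 6.51 and 5.23 in wild type and 5.59, 5.30 and 6.10 in Neb SH3-deleted muscle. The wild type range of Scn4b held both extremes. With 1 array left out, its difference ran from -0.25 (wild type replicate 3 dropped) to 0.39 (wild type replicate 2 dropped). It was 0.43 without the pair of arrays that stood apart. Clcn3, an intracellular chloride-proton exchanger gene, was at -0.12 (-0.47 to 0.22, -0.06 when Neb SH3-deleted replicate 3 was dropped and -0.23 with median scaling).

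Of 7 voltage-gated calcium channel genes, Cacna2d1 and Cacnb1, which encode the auxiliary α2δ1 and β1 subunits that partner the γ1 subunit, were tested. Cacna2d1 had log2 levels of 5.52, 4.99 and 5.66 in wild type and 5.28, 6.19 and 5.67 in Neb SH3-deleted muscle, a difference of 0.32 (95% interval -0.23 to 0.88). It was 0.09 with the highest array, Neb SH3-deleted replicate 2, dropped, and 0.12 with the lowest, wild type replicate 2, dropped. Cacnb1 was above background on 3 arrays and was at 0.08 (-0.33 to 0.50), and its sign turned without wild type replicate 1 (-0.01) or Neb SH3-deleted replicate 2 (-0.02). Of 10 endplate genes the acetylcholine receptor anchor gene Rapsn was tested, above background on 3 arrays, at 0.14 and at 0.01 without Neb SH3-deleted replicate 3. The receptor subunit genes Chrna1, Chrnb1, Chrnd, Chrne and Chrng had 0 probes that passed.

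Of the 5 tested genes of ion exchange and membrane anchoring, 4 had lower means in Neb SH3-deleted muscle and Ank3 lay at 0, none past the threshold (smallest adjusted p 0.979, limma). They were the water channel gene Aqp4 (-0.19), the sodium-potassium-chloride cotransporter gene Slc12a2 (-0.18), Popdc3, a membrane protein gene of the Popeye family (-0.15), and the ankyrin genes Ank1 (-0.14) and Ank3 (-0.00). With 1 array left out, Slc12a2 ran from -0.31 to -0.04, Popdc3 from -0.25 to 0.05 (above 0 when replicate 1 of either genotype was dropped), Ank1 from -0.24 to -0.07, Aqp4 from -0.27 to -0.11 and Ank3 from -0.26 to 0.20. The sign of Ank3 turned in 9 of 19 alternatives, among them the deposited values and no background correction. A second probe of Slc12a2 gave 0.02. Detection was weak for Aqp4 and Ank1. The Aqp4 probe, with signals of 82.4 to 98.2, was detected in 2 wild type samples and 1 Neb SH3-deleted sample. The Ank1 probe, with signals of 87.4 to 94.5, was detected in every wild type sample but in only 1 Neb SH3-deleted sample. Wild type alone thus met the detection filter for Ank1, so its lower mean is not independent of that filter.

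Among 1147 named genes above background on all 6 arrays, those whose normalized levels followed Atp1b1 most closely were Psma7, a proteasome subunit gene (Pearson r = 0.951 over 6 arrays), and Dnajc5, a chaperone gene of synaptic and secretory vesicles (r = 0.929). Psma7 was at -0.13 and Dnajc5 at -0.29 between the genotypes. With so many genes and 6 arrays these values are descriptive, and all share the arrays' processing.

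Muscle markers bore out the tissue label: 12 of 14 were tested and all 12 were above background on all 6 arrays. Of 8 nerve and Schwann cell markers 0 were tested. The summed normalized intensity of the 3 tested erythrocyte genes (of 6, with Slc4a1 at background on all arrays) was 274.5 to 631 in wild type and 636 to 672 in Neb SH3-deleted arrays. The other lists had sums that overlapped: slow fibre (3 tested of 7), endothelial (2 of 8), smooth muscle and pericyte (2 of 7), fibroblast (4 of 8), macrophage and leukocyte (1 of 6) and adipocyte (1 of 5). Sums can hide single genes, and 2 markers within these lists did not overlap between the groups, as was so for 9.33% of all genes. They were 1 of the 2 tested endothelial genes and 1 of the 2 tested smooth muscle and pericyte genes. The other lists with overlapping sums had 0. Pecam1, an endothelial adhesion molecule gene, was at -0.15. Its probe was above background on all 3 wild type arrays and on 0 of the Neb SH3-deleted ones. Pecam1 thus passed the detection filter through wild type alone, so its lack of overlap is not independent of that filter. Rgs5, a pericyte gene, was at -0.40 (95% interval -0.79 to -0.00, limma, adjusted p = 0.979), while Acta2 of the same list was at 0.26. Outside these lists the groups did not overlap for Hbb-bs, an erythrocyte globin gene, at 0.59 (limma, adjusted p = 0.979). That value is from the brightest of its 5 kept probes, and for the other erythrocyte genes tested the groups overlapped. The groups also did not overlap for Itga7, the 1 tested of 5 genes listed for satellite cells. Its intensity was 25.5 to 28.1 in wild type and 20.4 to 25.3 in Neb SH3-deleted arrays. Of the 5 listed, 3 were at background on all 6 arrays, so Itga7 alone does not report on satellite cells. The Itga7 probe was detected in every wild type sample but in only 1 Neb SH3-deleted sample. Wild type alone thus met the detection filter, so the lack of overlap for Itga7 is not independent of that filter. The part of these cell types in the member values was not tested.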

How the data were processed

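The authors deposited, per the file headers, for 6 Illumina arrays of 45281 probes, the mean bead intensity per probe with its detection p-value, and a table of normalized log2 values. Per the submitters' processing notes the tool was lumi, its version and settings, and whether the scale is variance-stabilized, not given in the sources used here. Intensities were background-corrected with limma 3.58.1 in R 4.3.3 (normexp from detection p-values, offset 16), taken to log2 and quantile normalized. Probes above background (detection p under 0.05) on 3 or more arrays were kept (3422), and the kept probe of highest mean stood for each symbol (3011 genes; 34885 probes had 1 symbol, 18 several, 10378 none). The genotypes were compared over all genes with lmFit and eBayes, two-sided, with Benjamini-Hochberg adjustment and no covariate. The path was also run on simulated data, with changes set only in probes brighter than background. That run therefore does not bear on the member probes near background.

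The members, 7 excitability classes and 10 marker lists were chosen with earlier results of these data known. The text names the members, the tested genes of each class and the 2 genes most like a member measured on all arrays. Exceptions chosen after their values were seen are the class genes named as not tested and the markers Itga7, Slc4a1, Pecam1, Rgs5, Acta2 and Hbb-bs. Same-numbered samples' deviations correlated at -0.206, -0.15 and 0.0916, so the replicate numbers were not used as pairs. Signal over background and the number of arrays limit precision.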

Additional observations from a re-analysis of the deposited data

How the results depend on the processing

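Under each of 20 alternatives limma called 0 genes at an adjusted p of 0.05, while the number at an unadjusted p below 0.05 was 95 to 188 where 3011 genes were tested, 147 of 3422 probes, 32 of 1030 with the strict filter and 1249 of 29453 with none. The difference of Atp1b1 stayed below 0 and short of the threshold in 19 of 19 alternatives (adjusted p 0.8 to 1), and spanned -0.54 to -0.15 when single arrays were dropped. That of Fxyd1 stayed below 0 in 17 of 18, the exception being without wild type replicate 1, at 0.0177, and spanned -0.13 to 0.02 when single arrays were dropped. These counts include settings that left both estimates as reported (-0.3841 and -0.03931) wherever they gave a value. Such settings were the changes of filter and of probe summary, the replicate block and the eBayes trend option. Their sign therefore adds nothing on stability. Fxyd1 gave no value with a detection p under 0.01 on all 6 arrays, because its probe did not pass. The median of the excitability list moved from -0.04 to -0.13 with median scaling, in which the median of all genes was at -0.09, and spanned -0.06 to -0.00 when single arrays were dropped. The replicate block, with 1 array of each genotype per block, could change p-values but not a difference. With it, Atp1b1 was at -0.38 (limma, adjusted p 0.99), Fxyd1 at -0.04 (0.994) and the list median at -0.04. The number of genes past the threshold was 0, as without the block. Clcn1, Kcnj11 and Cacng1 were not above background on enough arrays to be tested. A slide block was planned but not run, for want of slide labels in these sources.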
